A study of Mus musculus with 12 samples.

Results

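Tumor cells of the F4 line of B16 melanoma were compared with tumor cells of the F0 line across all genes measured. The members were defined by their labels, as the tdTomato-positive cells sorted from tumors, with earlier results of these data known. They are 6 of the 12 arrays in the series, of which 4 held F4 cells (replicates A to D) and 2 held F0 cells (replicates B2 and B3). The split on replicate A followed from leukocyte and muscle RNA seen on that array earlier. The other 6 arrays held the tdTomato-negative cells of the same tumors, here called the microenvironment. B16 is a pigmented melanoma line from C57BL/6 mice, and tdTomato is a red fluorescent protein that marked the inoculated cells. All tumors grew in C57BL6 mice under the skin of the right flank from 25000 cultured cells per mouse, were taken at 100 to 400 mm3, and were pooled from 3 mice per replicate. Every array therefore shows the average of 3 tumors. The labels call F4 a line with acquired resistance to earlier treatment by checkpoint inhibitors and describe its tumors as under that treatment. They conflict on F0: a treatment tag says that F0 tumors had no checkpoint inhibitor at any time, whereas the protocol says that mice of both lines had the same 3 injections together with Fvax, a vaccine of B16 cells that express Flt3 ligand. F4 and F0 are therefore compared as lines, with current treatment unsettled.

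Checkpoint inhibitors are antibodies that block receptors such as CTLA-4 and PD-1, or the ligand PD-L1, and so release T cells from restraint. As background, melanoma cells are known to escape T cells by losing class I antigen presentation or the response to interferon gamma, and they can also differ in how they feed on glucose. In glycolysis, glucose enters through transporters such as GLUT1 and GLUT3 and is split by a chain of enzymes that includes phosphoglycerate mutase. Gluconeogenesis runs part of that chain in reverse, with fructose bisphosphatase at its regulated step. Homeobox and egg-coat genes of the reproductive tract are silent in most adult tissues but are switched on in some tumors.

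One F4 array stood apart from the other 5. Replicate A had a mean raw signal of 250, where the others had 468 to 519, and its correlation with the other F4 arrays over all genes was 0.860 to 0.917, where F4 B and C correlated at 0.993. The other 5 arrays did not group by line in these correlations. The F0 arrays correlated at 0.960 with each other, and each reached 0.982 with an F4 array. F4 D reached 0.982 with an F0 array, against at most 0.976 with another F4 array. All 15 measured melanocyte markers were detected on at least one tumor array, and their mean log2 signal was 9.92 and 10.01 on the F0 arrays, up to 10.17 on F4 B, C and D and 9.30 on A. Pigment cell markers thus went with the label of tumor cells on 5 arrays, all above the microenvironment range of 8.05 to 9.86, but only narrowly on F0 B2. A lay within that range. These markers were also high in the microenvironment, where Mlana ran from 10.90 to 13.57. T cell markers, of which 11 of 12 measured were detected on a tumor array, summed to a normalized linear signal of 258 and 781 on the F0 arrays, 310 to 903 on F4 B, C and D and 8964 on A. Skeletal muscle markers, with 14 of 14 detected on a tumor array, summed to 803 and 857, to 739 to 781 and to 4916. For both lists A was far above every other tumor array, and the other F4 arrays were near F0. Macrophage markers were high on A as well, at a sum of 28194, but they also differed among the remaining arrays, with 5303 on F0 B3 and 4341 on F4 D against 11358 to 14021 on F0 B2, F4 B and F4 C. Measured markers that no tumor array detected were 1 of 12 for T cells (Trat1), 1 of 9 for cytotoxic and NK cells (Klrk1), 2 of 3 for B cells (Cd79a and Fcrla), 1 of 9 for leukocytes at large (Itgb2), 2 of 8 for neutrophils (Ltf and Retnlg) and 1 of 4 for erythroid cells (Fech). The other measured markers of these lists were detected on at least 1 tumor array. In sorted bulk samples, fewer cells of a type and less RNA per cell cannot be told apart. Calls, list counts of calls and the largest differences are given with and without A, and any other difference is without A unless stated.

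**Figure D1:**
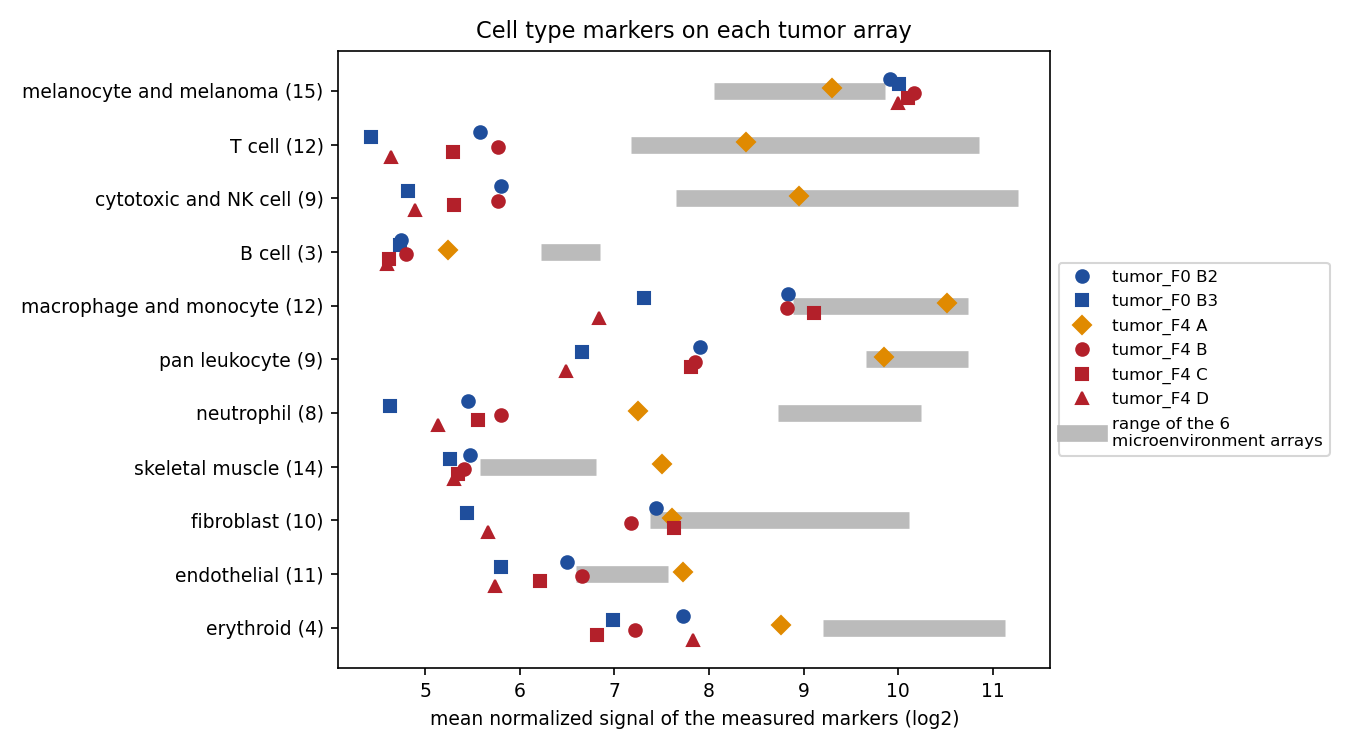
Mean normalized signal (log2, horizontal axis) of the measured markers of each cell type on each tumor array, with the number of markers in brackets; grey bars span the 6 microenvironment arrays. F4 A (orange diamonds) lies at 8.39 for T cells and 7.50 for skeletal muscle, above all other tumor arrays, and at 9.30 for melanocyte markers, below them.

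A gene counts here as detected where its probe had a detection p below 0.01 against the array's negative controls, and A detected 8995 probes, against 9302 to 10308 on the other 5 arrays. Signals are quantile-normalized log2 intensities, and their precision is limited by the number of arrays. The 95% interval of a difference reached a median of 0.76 to either side. Intervals and SEs of the main fits pool the spread within all 4 groups, microenvironment arrays included. They are therefore not the spread between tumor arrays alone and can be wider or narrower. For Gclm the SE without A was 0.51, against 0.11 with the tumor arrays fitted alone, and for Lyz2 it was 0.84 against 0.98. The median gene had an SD of 0.17 between the F0 arrays, 0.28 between the 4 F4 arrays and 0.14 between F4 B, C and D. All tumor arrays lay on one chip with F0 at its first positions, so the effects of position and of line cannot be told apart. The replicates were separate pools of mice.

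Few genes differed between the lines past the threshold of 0.05 on the adjusted p. In limma with A, 1 gene was higher in F4 (0.0127% of 7894 tested) and 6 were lower (0.0760%). Without A, 2 were higher (0.0253%) and 3 were lower (0.0380%). The genes that passed in both fits were Rhox5, Lgi4 and Fbp2, all lower in F4, and Zp3, which was higher. Adcy2, Igfals and D630003M21Rik passed with A only, as lower, and Hs3st1 passed without A only, as higher. Fbp2, Adcy2, Igfals and D630003M21Rik were detected on both F0 tumor arrays and on no other array of the series. They met the filter of detection on 2 or more arrays only through the line in which they were higher. At an unadjusted p below 0.05 without A, 77 genes were higher (0.975%) and 81 lower (1.03%). Together this is a smaller share than that threshold passes when no gene differs. The count therefore does not measure how many genes differ between the lines. Whether the spread shared with the microenvironment arrays accounts for it was not tested. The direction of these few calls depended on the scaling. In place of quantile normalization, each array was scaled to the median of the probes detected on all 12 arrays. With A, 11 genes were then higher and 2 lower (84.6% higher, against 14.3% as reported). Without A, 15 were higher and 3 lower (83.3% against 40.0%). In a fit on the tumor arrays alone without A, the share was 57.1% with this scaling against 51.7%. For 837 genes F4 B, C and D all lay above both F0 arrays (10.6%), and for 966 genes all lay below (12.2%). Replicate A lay on the same side of F0 for 1084 of these 1803 genes. With 3 arrays against 2, shares near these arise when the order of the arrays is random. A lack of overlap alone therefore does not mark a gene as different.

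**Figure D2:**
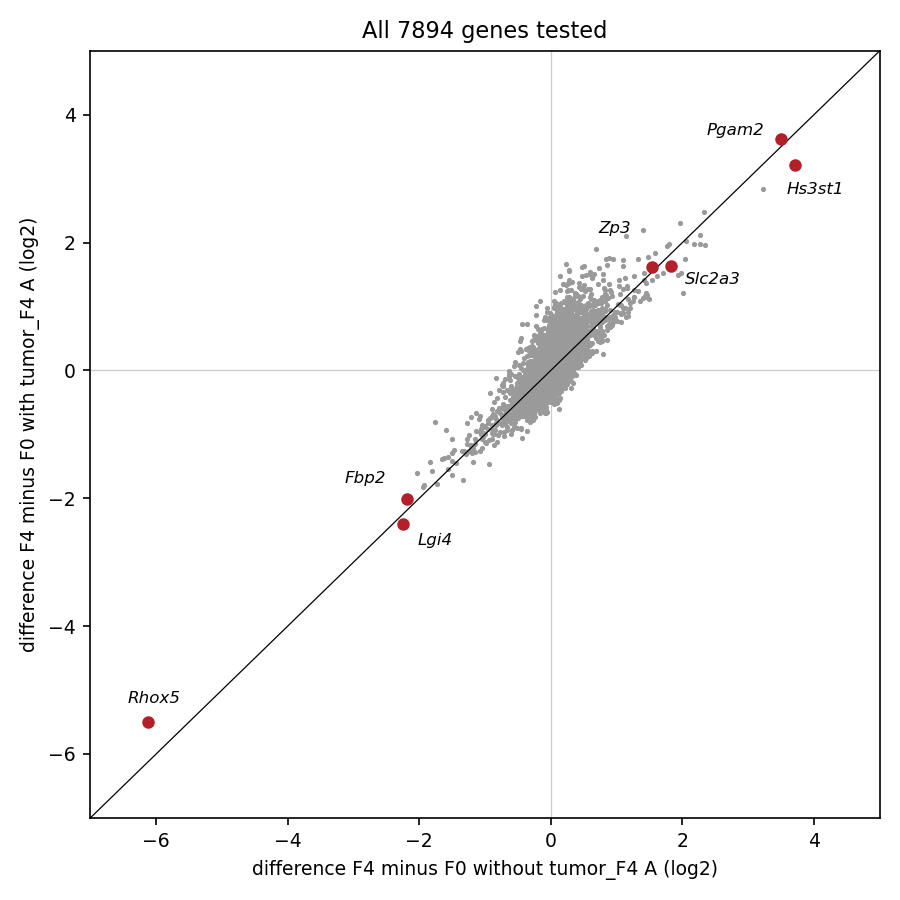
Difference between F4 and F0 tumor cells (log2) of every gene tested, without replicate A (horizontal axis) and with it (vertical axis); the line marks equal values. Rhox5, at -6.12 and -5.50, and Hs3st1 and Pgam2, above 3 on both axes, lie far from most genes; the mass of genes near 0 is stretched along the vertical axis.

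Rhox5 showed the largest difference of all genes in both fits. It encodes a homeobox transcription factor of an X-linked cluster, known from Sertoli cells, the epididymis and the placenta. Its log2 signal was 10.92 on F0 B2 and 10.78 on F0 B3, against 4.73, 4.88 and 4.58 on F4 B, C and D, and 7.23 on F4 A. The gene was thus detected on both F0 arrays and on A, and was not detected on the other F4 arrays, so A fell between the lines. Without A the difference was -6.12 ± 0.48 (SE, limma, adjusted p = 0.000966), which as a bound is at least 51.8-fold lower in F4. With A it was -5.50 ± 0.71 (adjusted p = 0.0200). In the microenvironment fraction Rhox5 averaged 8.87 in F0 and 4.65 in F4 and was detected on 2 of 6 arrays, so the lines stood in the same order there.

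Of the reproductive and germline list, to which Rhox5 belongs, 8 of 30 genes were measured, with a median difference of -0.07 without A and -0.02 with A. In each fit Rhox5 passed as lower and Zp3 as higher. Zp3 is the gene of the egg-coat glycoprotein that sperm bind. Its signal was 4.34 and 4.32 on the F0 arrays, where it was not detected, and 6.16, 5.90, 6.09 and 5.62 on F4 A to D, where it was detected throughout. The groups did not overlap, and A was the highest. Without A the difference was 1.54 ± 0.22 (SE, adjusted p = 0.0447, at least 1.63-fold higher) and with A it was 1.62 ± 0.22 (adjusted p = 0.0216, at least 1.71-fold higher). Dppa4, a nuclear factor of pluripotent cells, had 5.66 and 5.89 in F0 and 4.38 to 4.66 in F4, where it was not detected, and did not pass (-1.20, adjusted p = 0.0826 without A). Tex101, a germ cell surface protein, gave a difference of -1.03 (adjusted p = 0.383). Calr3 and Dppa5a, also on this list, were not detected on any tumor array.

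Lgi4 and Fbp2 were lower in F4 with little influence of A. Lgi4 encodes a secreted protein that Schwann cells use in the myelination of nerves. Its signal was 8.04 and 7.53 in F0, against 4.92 on A and 5.38, 5.58 and 5.65 on F4 B, C and D. All F4 arrays lay below both F0 arrays, with A the lowest and the only array on which Lgi4 was not detected. The difference was -2.25 ± 0.26 (SE, 4.74-fold lower, adjusted p = 0.0136) without A and -2.40 ± 0.28 (5.28-fold, adjusted p = 0.0195) with A. Of the glia and neural crest list, 13 of 26 genes were measured and Lgi4 alone passed, with a median difference of -0.01 without A, where all genes had 0.01. Adam23, which encodes a receptor of LGI proteins, had 8.23 and 8.12 in F0 against 6.70 to 7.25 in F4, a difference of -1.0 ± 0.32 without A that did not pass (adjusted p = 1.0). A second Adam23 probe gave -0.62 and another 0.11, so the probes disagreed. Pmp22, a myelin protein gene, differed by -0.37 ± 0.45.

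Fbp2 encodes the muscle form of fructose bisphosphatase. Its signal was 7.01 and 6.63 in F0, against 5.28 on A and 4.81, 4.69 and 4.43 on the other F4 arrays, none of which detected it. F4 was below F0 on every array, and A, the array with high muscle markers, was nearest to F0. The difference was -2.18 ± 0.21 (SE, adjusted p = 0.00465, at least 3.17-fold lower) without A and -2.02 ± 0.25 (adjusted p = 0.0195, at least 3.02-fold) with A. Of the gluconeogenesis list 5 of 10 genes were measured, and Fbp2 alone passed, with a list median of 0.10 without A and 0.26 with A. Got1, the cytosolic aspartate aminotransferase, differed by 0.30 ± 0.36.

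The glycolysis list held the largest difference among the metabolic genes, yet no member of its 19 measured genes passed in either fit. Pgam2 encodes the muscle form of phosphoglycerate mutase. It stood at 4.91 and 5.51 in F0, detected on 1 of these 2 arrays, and at 9.17, 8.81, 8.47 and 8.86 on F4 A to D. The groups lay far apart, and A, where muscle markers were high, was the highest of F4. Without A the difference was 3.50 ± 0.80 (SE, 11.3-fold higher, adjusted p = 0.290), with A 3.62 ± 0.74 (12.3-fold, adjusted p = 0.191). Its spread was mainly among the microenvironment arrays, which ran from 4.53 to 9.07, while the SD was 0.42 between the F0 arrays and 0.21 between F4 B, C and D. Fitted on the tumor arrays alone, without A, the same difference had an SE of 0.23 and passed (adjusted p = 0.0143). Pgam1, the widely expressed form of the enzyme, differed by -0.11 ± 0.50 (9.71 and 10.30 in F0, 9.83 to 9.95 on F4 B, C and D), so the lines overlapped.

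Slc2a3 encodes the glucose transporter GLUT3. Its signal was 7.93 and 8.33 in F0 and 9.23, 9.92, 10.04 and 9.90 on F4 A to D. Every F4 array was higher than both F0 arrays, with A the lowest of F4. The difference was 1.82 ± 0.29 (SE, 3.54-fold higher, adjusted p = 0.0633) without A and 1.64 ± 0.31 (3.12-fold, adjusted p = 0.121) with A, and it passed among the tumor arrays alone without A (adjusted p = 0.0222). Slc2a1, which encodes GLUT1, differed by 0.26 ± 0.33. Eno3, the muscle form of enolase, was not higher but stood at 8.35 on both F0 arrays and 7.61 to 7.99 in F4 (-0.56 ± 0.30 without A, adjusted p = 1.0). The platelet phosphofructokinase gene Pfkp differed by 0.30 ± 0.32. Over the glycolysis list 9 of 19 members lay above 0 without A, with a median of -0.03.

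Hs3st1 encodes a sulfotransferase that adds a rare 3-O-sulfate to heparan sulfate, the step that makes the antithrombin binding site. Its signal was 5.64 and 5.52 in F0 and 9.67, 9.32 and 8.87 on F4 B, C and D, with 7.34 on A. A lay between the lines. Without A the difference was 3.71 ± 0.46 (SE, 13.1-fold higher, adjusted p = 0.0184), the largest positive difference among the genes that passed. With A it was 3.22 ± 0.60 (9.32-fold) and did not pass (adjusted p = 0.121). Of the list of heparan sulfate enzymes, core proteins and ligands, 18 of 28 genes were measured and Hs3st1 alone passed without A. The list's median was -0.11 both with and without A. Ptn, which encodes the heparin-binding growth factor pleiotrophin, had 4.40 and 4.36 in F0 and 5.14 to 5.69 in F4, and was detected on 2 of the arrays F4 B, C and D (1.05 ± 0.22 without A, adjusted p = 0.196). Ext2, a polymerase of the chain, differed by -0.45 ± 0.26 and the core protein gene Sdc1 by -0.55 ± 0.37. Neither passed, and Sdc1 was not detected on any F4 array.

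Cyclic AMP and insulin-like growth factor genes included 2 of the 3 remaining calls with A. Adcy2 encodes an adenylyl cyclase, an enzyme that makes cyclic AMP. Its signal was 6.18 and 6.70 in F0, against 4.48, 4.79, 4.96 and 4.39 on F4 A to D, where it was not detected. Igfals, which encodes the acid-labile subunit that carries insulin-like growth factors in serum, had 6.25 and 6.11 in F0 and 4.68, 4.72, 4.77 and 4.74 in F4, likewise not detected. For both genes A lay among or close to the other F4 arrays. Adcy2 differed by -1.78 ± 0.27 with A (adjusted p = 0.0363, at least 2.32-fold lower) and -1.73 ± 0.28 without (adjusted p = 0.0685). Igfals differed by -1.45 ± 0.20 with A (adjusted p = 0.0274, at least 1.94-fold lower) and -1.44 ± 0.21 without (adjusted p = 0.0586). The differences were nearly the same size in both fits, and the call was lost without A. Of this list 19 of 30 genes were measured, and 2 passed as lower with A and 0 without A, with medians of 0.07 and 0.04. Adcy6, another adenylyl cyclase, stood at 6.66 and 7.14 in F0 and 5.57 to 5.82 in F4 (-1.32 ± 0.41 without A, adjusted p = 0.938). Igf1r, the growth factor receptor gene, differed by -0.27 ± 0.25. The clone-named D630003M21Rik had 6.34 and 6.39 in F0 and 4.33 to 4.89 in F4, was not detected in F4, and differed by -1.63 ± 0.25 with A (adjusted p = 0.0363) and -1.50 ± 0.23 without (adjusted p = 0.0586).

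**Figure D3:**
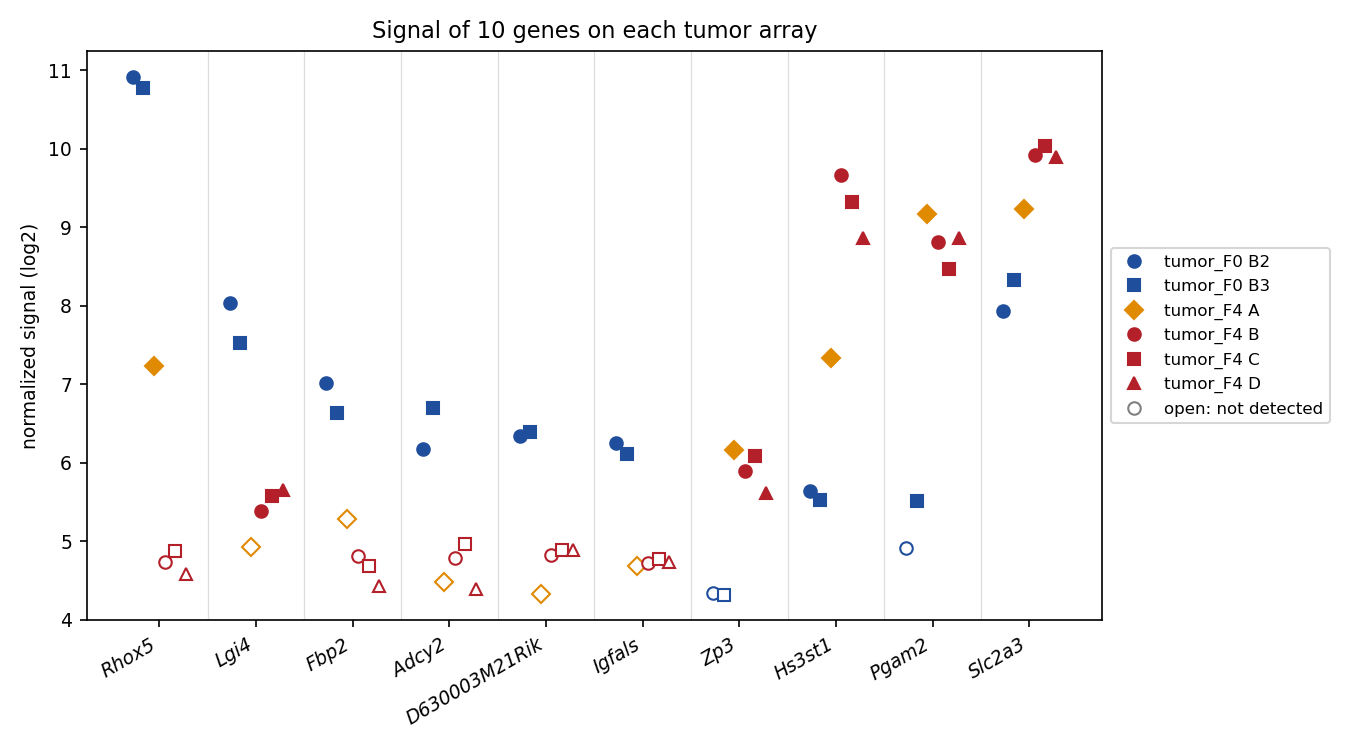
Normalized signal (log2, vertical axis) on each tumor array of the 8 genes that passed in either fit and of Pgam2 and Slc2a3; open symbols were not detected. Blue F0 points and red F4 B, C and D points do not overlap for any of the 10 genes, while F4 A (orange) lies between them for Rhox5, Hs3st1, Slc2a3 and Fbp2.

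The calls rested on few arrays. In the fit without A, Rhox5 passed in 11 of 11 omissions of one further array. Fbp2 passed in 10 of 11 and was lost without tumor_F0 B2 (adjusted p = 0.152). Lgi4 and Hs3st1 passed in 6 of 11 and were lost when any one of the 5 tumor arrays was left out, with adjusted p of 0.0609 to 0.180 for Lgi4 and 0.0609 to 0.314 for Hs3st1. Zp3 passed in 4 of 11 and was lost without any one of the 5 tumor arrays or without microenvironment_F4 B or C (adjusted p 0.0564 to 0.512). In the fit with A no gene passed when either F0 tumor array, tumor_F4 B or C, or microenvironment_F4 B was left out. Across 12 other ways of processing, the fit without A gave differences of -6.76 to -3.83 for Rhox5, which passed in 12 of 12, and passes in 12 of 12 for Lgi4, 11 for Fbp2, 11 for Hs3st1 and 6 for Zp3. With A the difference of Rhox5 ran from -6.03 to -3.58 and passed in 10 of 12, and the passes were 10 of 12 for Lgi4, 7 for Fbp2, 2 for Hs3st1 and 6 for Zp3.

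The promoters of the genes that passed without A are printed because these genes were on in one line and at or near the detection limit in the other. RefSeq promoters of mouse assembly GRCm38.p6 were at hand for 4 of the 5 genes, all but Lgi4. Each runs 5′ to 3′ on the gene's own strand, from 250 bases before the transcription start to 50 after it, with CG pairs in capitals, the dinucleotide at which DNA is methylated in mammals. The first is at chrX:37754358-37754657 on the plus strand, the second at chr13:62858351-62858650 on the minus strand, the third at chr5:135979855-135980154 on the plus strand and the fourth at chr5:39644582-39644881 on the minus strand.
Rhox5: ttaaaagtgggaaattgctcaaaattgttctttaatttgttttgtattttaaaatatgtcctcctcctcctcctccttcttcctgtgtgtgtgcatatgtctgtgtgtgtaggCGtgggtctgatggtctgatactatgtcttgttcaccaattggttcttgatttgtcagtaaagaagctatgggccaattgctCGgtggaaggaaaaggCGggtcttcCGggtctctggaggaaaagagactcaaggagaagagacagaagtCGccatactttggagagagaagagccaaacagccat
Fbp2: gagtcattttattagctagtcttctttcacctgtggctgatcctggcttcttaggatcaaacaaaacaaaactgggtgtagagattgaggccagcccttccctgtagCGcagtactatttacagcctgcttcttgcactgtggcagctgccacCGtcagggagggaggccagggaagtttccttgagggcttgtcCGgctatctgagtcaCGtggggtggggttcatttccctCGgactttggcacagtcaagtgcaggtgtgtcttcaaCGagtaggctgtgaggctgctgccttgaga
Zp3: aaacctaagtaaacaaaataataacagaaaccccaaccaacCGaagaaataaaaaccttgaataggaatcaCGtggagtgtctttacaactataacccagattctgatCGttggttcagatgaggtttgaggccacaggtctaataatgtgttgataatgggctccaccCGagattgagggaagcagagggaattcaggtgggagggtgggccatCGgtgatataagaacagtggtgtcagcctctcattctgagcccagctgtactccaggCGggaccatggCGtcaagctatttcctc
Hs3st1: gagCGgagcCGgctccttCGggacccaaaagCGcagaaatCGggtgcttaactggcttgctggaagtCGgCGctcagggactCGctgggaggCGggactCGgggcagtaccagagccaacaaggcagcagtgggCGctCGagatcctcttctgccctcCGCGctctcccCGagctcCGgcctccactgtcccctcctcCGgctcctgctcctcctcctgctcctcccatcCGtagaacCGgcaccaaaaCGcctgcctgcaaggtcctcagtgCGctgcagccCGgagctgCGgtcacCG

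Hs3st1 held 24 CG pairs in this window, more than 80.0% of the 27025 mouse promoters in the table. Rhox5 held 5, Fbp2 6 and Zp3 7, near the median of 7 over all promoters. The letters CACGTG, an E-box read the same on both strands, occurred 1 time each in the Fbp2 and Zp3 promoters and in 7.2% of all promoters of this length. The shorter letters ACGTG, contained in it on either strand, were found in the same 2 promoters and in 19.7% of all. CATGTG (14.1% of all promoters) and TATAAA (14.2%) were searched on both strands and matched none of the 4. Such matches describe the sequence, and the arrays did not measure methylation or binding.

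Beyond the genes that passed, the 12 largest differences in each direction without A were named among genes with an unadjusted p below 0.01, detected throughout the brighter group and with F4 B, C and D on one side of F0. The 12 higher genes differed by 1.76 to 3.71, and A lay above both F0 arrays for 10 of them. For 7 of the 12 A lay between F0 and the other F4 arrays. Fkbp11, a folding enzyme of the secretory pathway, had 6.20 and 4.70 in F0, 8.56, 8.68 and 8.81 on F4 B, C and D and 7.07 on A (3.23 ± 0.64, adjusted p = 0.159 without A, and 2.83 ± 0.68 with A). Cort, which encodes the neuropeptide cortistatin, had 6.11 and 5.20 in F0 and 7.74 to 8.18 on F4 B, C and D, with 6.49 on A (2.34 ± 0.60 without A and 1.96 ± 0.64 with A). A second Cort probe gave 2.10 and so agreed in direction. Rps6kl1, a kinase-like gene, was not detected in F0 (4.37 and 4.55) and had 6.64, 6.75 and 6.77 on F4 B, C and D and 5.56 on A. Its difference of 2.27 ± 0.36 without A, 1.98 ± 0.42 with A, did not pass in either fit above (adjusted p = 0.0679 without A) but did among the tumor arrays alone without A (adjusted p = 0.0106).

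A zinc importer and a cation channel belonged to the same set of higher genes. Slc39a4, which encodes the zinc importer ZIP4, had 4.92 and 5.80 in F0 and 7.30, 7.35, 7.42 and 7.48 on F4 A to D, so that A sat with the other F4 arrays (2.06 ± 0.51, adjusted p = 0.388 without A, and 2.03 ± 0.47 with A). Mcoln3, a cation channel gene known for coat colour and deafness mutations in mice, had 4.56 and 5.48 in F0 and 6.82 to 7.24 on F4 B, C and D, with 5.85 on A (2.04 ± 0.41, adjusted p = 0.164 without A, and 1.74 ± 0.46 with A). Igsf5, a cell junction protein of the immunoglobulin superfamily, was not detected in F0 (4.34 and 4.96) or on A (4.80) and had 6.51 to 6.72 on F4 B, C and D. Its difference was 1.98 ± 0.30 without A (adjusted p = 0.0592, at least 2.75-fold) and 1.52 ± 0.50 with A, and A stood within the F0 values. Upp1, the uridine phosphorylase gene, had 7.66 and 5.88 in F0, 8.67 to 8.86 on F4 B, C and D and 10.12 on A (1.96 ± 0.48 without A and 2.31 ± 0.54 with A). The microenvironment arrays had 9.02 to 10.27 for Upp1, and 3 probes gave 1.54 to 2.09, all in the same direction. Plekha2, a phosphoinositide-binding adaptor, had 7.43 and 6.64 in F0, 8.65 to 8.90 on F4 B, C and D and 9.57 on A (1.76 ± 0.43 without A and 1.95 ± 0.43 with A), with 9.56 or more in the microenvironment. For Upp1 and Plekha2, A thus lay beyond the other F4 arrays and in the microenvironment range. Bnip5 had 4.87 and 5.84 in F0 and 7.07 to 7.41 on F4 B, C and D, and A, at 5.54, lay within F0 (1.93 ± 0.54 without A and 1.49 ± 0.63 with A).

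The 12 lower genes differed by 1.57 to 6.12 in size, and A lay below both F0 arrays for 10 of them. Faah encodes the hydrolase that breaks down the endocannabinoid anandamide. It had 7.98 and 7.79 in F0 and 5.83, 6.07 and 5.64 on F4 B, C and D, but 7.57 on A, close to F0 (-2.04 ± 0.61, adjusted p = 0.849 without A, and -1.61 ± 0.67 with A). A second Faah probe gave -1.59. Among the tumor arrays alone without A, Faah passed (adjusted p = 0.0212), as did Plekhb1, a membrane-associated protein gene (7.89 and 7.30 in F0, 5.70 to 5.93 on F4 B, C and D, 6.68 on A, adjusted p = 0.0424). In the fits above Plekhb1 differed by -1.80 ± 0.39 without A and -1.58 ± 0.41 with A. Ank, which encodes a pyrophosphate exporter, had 6.90 and 7.57 in F0 and 4.90 to 5.67 on F4 B, C and D, with 7.0 on A, within F0 (-1.84 ± 0.38 without A and -1.44 ± 0.50 with A). Ak8, an adenylate kinase, had 6.43 and 7.49 in F0 and 4.82 to 5.52 in F4 (-1.95 ± 0.55 without A and -1.82 ± 0.52 with A). Efcab6, a gene with calcium-binding motifs, was not detected in F4 (4.42 to 4.98) and had 5.63 and 7.11 in F0 (-1.93 ± 0.41 without A and -1.80 ± 0.40 with A). Chn2, which encodes a Rac-inactivating protein, was not detected on F4 B, C and D (4.34 to 4.52) and had 5.72 and 6.41 in F0 and 5.49 on A (-1.65 ± 0.35, adjusted p = 0.213 without A, and -1.38 ± 0.40 with A). Ptgir, the prostacyclin receptor gene, had 5.61 and 6.37 in F0 and was not detected in F4 (4.35 to 4.54), a difference of -1.57 ± 0.27 without A (adjusted p = 0.0826) and -1.54 ± 0.25 with A (adjusted p = 0.0585). Napsa, an aspartic protease gene, went from 7.41 and 7.56 in F0 to 4.73 to 6.42 on F4 B, C and D, while A stood at 9.53, in the microenvironment range of 9.22 to 10.77 (-1.76 ± 0.56 without A and -0.81 ± 0.99 with A). For Faah, Ank and Napsa, A thus stood near or beyond F0 rather than with the other F4 arrays. For each of these genes A also lay in the microenvironment range, which was 7.29 to 9.76 for Faah and 6.89 to 8.11 for Ank.

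**Figure D4:**
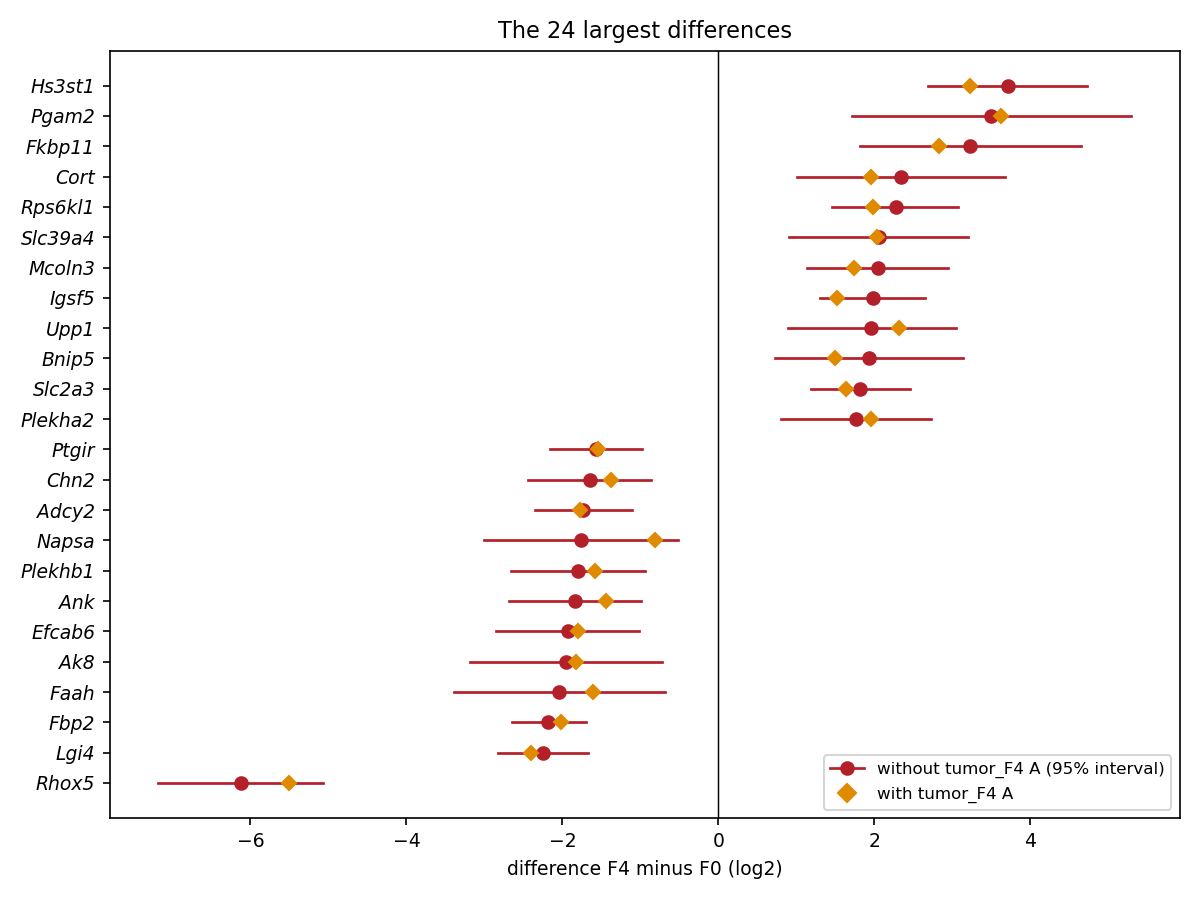
Difference between F4 and F0 tumor cells (log2, horizontal axis) of the 12 genes with the largest difference in each direction, without replicate A (red, with the 95% interval of the limma fit) and with it (orange). The intervals are widest for Pgam2, from 1.71 to 5.29, and adding A moved Napsa most.

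Because both fits above share their spread with the microenvironment arrays, the tumor arrays were also fitted alone. With A left out this gave 15 higher genes (0.190%) and 14 lower (0.177%), among them all 5 that passed without A. A lay on the F4 side of F0 for 14 of the 15 and 14 of the 14, a count that includes Abcc2, detected neither in F0 nor on A. Among all 1803 genes for which F0 and F4 B, C and D did not overlap, A lay on the F4 side for 1084, but these were not chosen by the size of the difference. The genes called had large differences, and A was set against the same F0 arrays that gave the calls. The side of A is therefore not independent support for them. In the fit on the tumor arrays alone without A, Rhox5 had an adjusted p of 0.000140. With A kept in, the tumor arrays alone gave 1 higher gene, Pgam2 (adjusted p = 0.0433), and 0 lower. The counts without A moved with single arrays: 32 higher and 20 lower without tumor_F0 B2, 14 and 6 without tumor_F0 B3, 0 and 1 without tumor_F4 B or C, and 1 and 1 without tumor_F4 D. Of these 29 genes 14 were named by another rule, and 15 were not. The 5 described next were chosen after their values were seen. Bdh1, a ketone body dehydrogenase, had 5.55 and 5.50 in F0 and 7.31, 6.80, 7.17 and 7.21 on F4 A to D (1.53, adjusted p = 0.0390). Abcc2, an export pump for organic anions, was not detected in F0 (4.38 and 4.42) or on A (4.72) and had 5.74 to 5.94 on F4 B, C and D (adjusted p = 0.0212). Smoc1, a matrix glycoprotein gene, had 5.44 and 5.28 in F0 and 6.18 to 6.69 in F4 (adjusted p = 0.0375). On the lower side, Tenm4, a teneurin adhesion protein gene, had 8.47 and 8.13 in F0 and 6.62 to 7.68 in F4 (adjusted p = 0.0390), and the signalling ligand gene Wnt6 had 6.45 and 6.61 against 5.25 to 5.39 (adjusted p = 0.0377). For Abcc2 neither F0 nor A detected the gene, so their order has no meaning.

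Energy and redox lists had medians close to that of all genes, 0.01 without A. The 7 pentose phosphate pathway genes measured had a median of -0.08 without A and 0.05 with A, and none passed. Of 18 citrate cycle genes measured, 16 lay above 0 without A, with a median of 0.13, and none passed in either fit. Mdh2, the mitochondrial malate dehydrogenase, had 9.53 and 9.85 in F0 and 9.98 to 10.35 in F4 (0.35 ± 0.35). Ogdh, of the oxoglutarate dehydrogenase complex, differed by 0.33 ± 0.36. The median of the list was -0.01 without tumor_F0 B2, so its sign rested on that array. Of 54 oxidative phosphorylation genes, 38 lay above 0, with a median of 0.10 and none passing. Cox6b1, a subunit of cytochrome oxidase, had 12.54 and 12.63 in F0 and 12.84 to 12.98 on F4 B, C and D (0.32 ± 0.29), and Uqcrc1, of the cytochrome bc1 complex, differed by 0.28 ± 0.25. Without tumor_F0 B2 this median was -0.02. The redox and NRF2 target list had 14 of 17 genes above 0 and a median of 0.19, which ran from 0.11 to 0.27 as each of the 5 arrays was left out in turn. Its members Gclm and Slc7a11, which serve glutathione synthesis by making its precursor and importing cystine, differed by 0.62 ± 0.51 and 0.94 ± 0.54. Prdx3 and Gsta4, of the peroxiredoxins and glutathione transferases, differed by 0.42 ± 0.35 and 1.09 ± 0.94. None of the 17 passed.

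None of the 9 measured genes, of 27 on the list, of alcohol, aldehyde and retinol metabolism passed in either fit, and their median was 0.12 without A. Adh7, a dehydrogenase of retinol and ethanol, had 6.56 and 5.96 in F0 and 7.92, 7.54, 7.66 and 7.08 on F4 A to D. The lines did not overlap, with A the highest, and the difference was 1.16 ± 0.59 without A and 1.29 ± 0.55 with A (adjusted p = 1.0 in both). Rdh5, a retinol dehydrogenase, had 8.09 and 7.85 in F0 and 6.35 to 7.24 in F4 (-0.98 ± 0.50), and Aldh2 differed by -0.37 ± 0.36. Of the fatty acid and cholesterol synthesis list, 16 genes were measured, with a median of -0.06 without A and -0.31 with A, the largest shift that A caused among the metabolic lists. The sterol regulator Srebf2 differed by -0.47 ± 0.30 and Mvd, of the mevalonate pathway, by -0.40 ± 0.35. Hypoxia response genes had a median of -0.02 without A, with Vegfa at -0.25 ± 0.24, Ddit4 at -0.46 ± 0.39 and Egln3 at 0.44 ± 0.44. Egln3 stood at 8.02 on A, against 5.41 to 6.29 on the other tumor arrays. No member of these lists passed in either fit.

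Class I presentation and interferon genes varied more between the F0 arrays than between the lines. The mean log2 signal of the 18 class I presentation genes measured was 8.77 on F0 B2 and 7.33 on F0 B3, with 8.91, 8.54, 8.34 and 8.12 on F4 A to D. The F4 arrays B, C and D thus lay between the F0 arrays. Without A the list's median difference was 0.19, with 16 of 18 above 0, but it was -0.60 without tumor_F0 B3 and 0.93 without tumor_F0 B2. Psmb9, a subunit of the immunoproteasome, had 10.06 and 6.58 in F0 and 9.14 to 10.12 in F4 (1.16 ± 0.82, and -0.58 without F0 B3). Psmb8, another such subunit, had 8.05 and 5.47 against 6.97 to 8.52. H2-K1, a class I heavy chain, differed by 0.21 ± 0.67 and B2m, the light chain, by 0.28 ± 0.24 (13.59 and 13.15 in F0, 13.48 to 13.83 in F4). The interferon list had a median of 0.12, which was -0.42 without tumor_F0 B3 and 0.77 without tumor_F0 B2. Macrophage markers moved in the same way, with a mean of 7.31 on F0 B3 and 8.84 on F0 B2, and their part in these values was not tested. None of the 18 class I or 29 interferon genes passed in either fit.

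Within the interferon list, Ifi35 had 8.49 and 7.59 in F0 and 8.47, 9.15, 8.97 and 8.84 on F4 A to D (0.95 ± 0.33 without A, 0.50 without F0 B3). Bst2, which tethers virus particles to the cell surface, had 10.01 and 9.08 against 10.10 to 10.86 (0.84 ± 0.35, and 0.37 without F0 B3). Usp18 and Socs3, which dampen interferon and cytokine signals, differed by 0.58 ± 0.32 and 0.90 ± 0.51, which fell to 0.08 and 0.47 without F0 B3. The receptor chain gene Ifngr1 had 6.68 and 6.41 in F0 and 6.39 to 6.85 on F4 B, C and D, with 8.71 on A, in the microenvironment range of 8.30 to 10.91. Jak2, the kinase below it, differed by -0.24 ± 0.35 and was highest on F0 B2 (7.73). Immune checkpoint genes had a median of 0.02 without A and 0.42 with A. Cd274, the gene of PD-L1, had 10.29 and 8.87 in F0 and 10.13, 10.01, 9.63 and 9.29 on F4 A to D, so the F0 arrays enclosed all F4 arrays (0.06 ± 0.58). Lgals9, the galectin-9 gene, had 6.85 and 7.03 in F0 and 7.65, 7.75, 7.85 and 7.73 in F4 (0.84 ± 0.35, adjusted p = 1.0), and its second probe gave 0.47. Ctla4, the T cell receptor gene targeted by checkpoint antibodies, was detected on A alone among the tumor arrays (7.09).

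**Figure D5:**
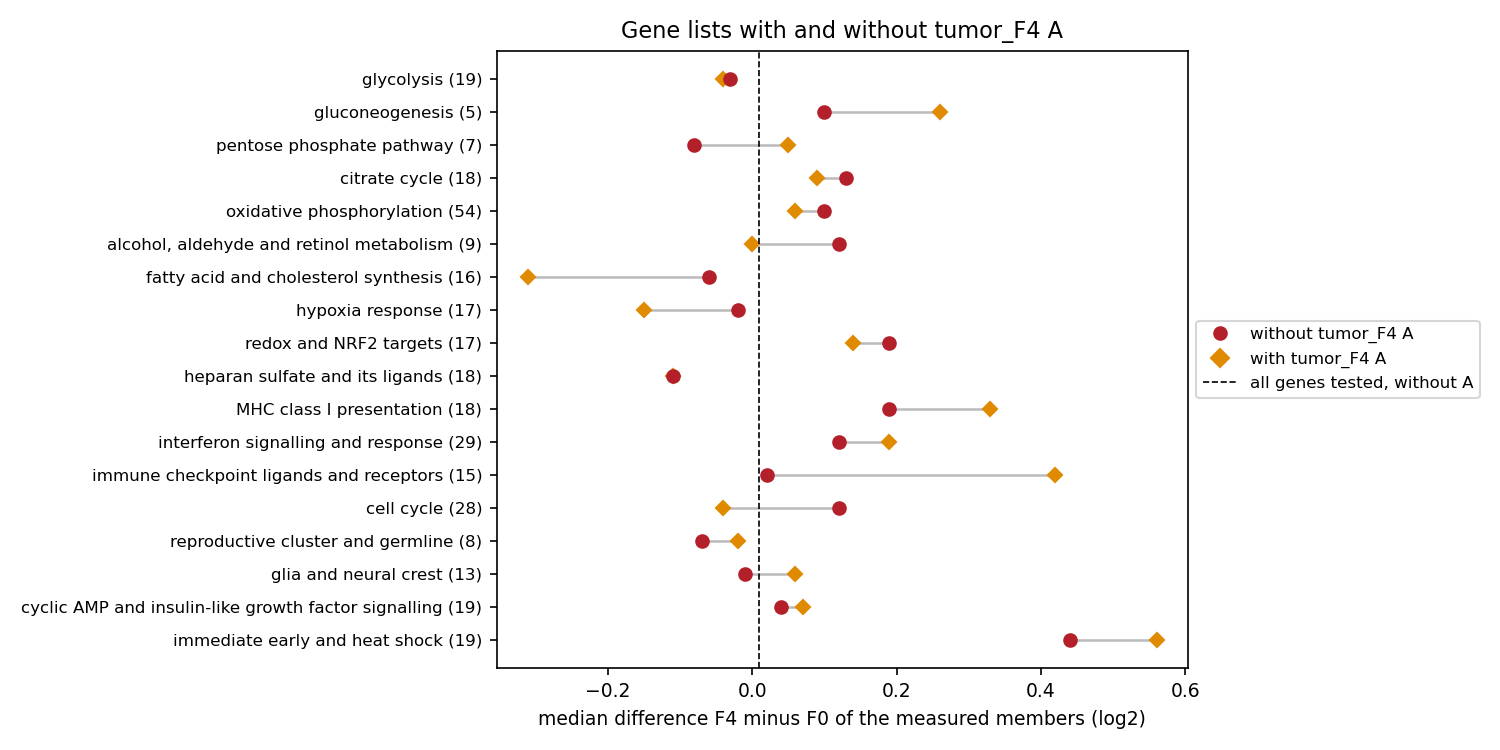
Median difference between F4 and F0 tumor cells (log2, horizontal axis) of the measured members of each pathway list, without replicate A (red) and with it (orange); brackets give the number measured and the dashed line the median of all genes. Without A every median but that of immediate early and heat shock genes, at 0.44, lies between -0.11 and 0.19.

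Cell cycle genes had a median of 0.12 without A, with 22 of 28 above 0, and -0.04 with A. The median was -0.09 without tumor_F0 B2. Ccnd1, the cyclin D1 gene, had 11.64 and 11.24 in F0 and 11.02 to 11.09 on F4 B, C and D (-0.39 ± 0.26), and Cdc20, an activator of the anaphase-promoting complex, differed by 0.35 ± 0.44. Immediate early and heat shock genes, which respond within minutes to handling and stress, had the largest median among the pathway lists without A, 0.44 without A and 0.56 with A, with 15 of 19 above 0 without A. It was -0.27 without tumor_F0 B3, where these genes were low. Egr1 had 10.51 and 7.03 in F0 and 9.49 to 11.22 in F4, and its difference of 1.12 ± 0.83 became -0.62 without F0 B3. Klf2 had 9.02 and 6.73 against 8.85 to 9.58. Fos differed by 0.44 ± 0.33 and Jun by 0.74 ± 0.45. No member passed in either fit.

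None of the 15 pigment cell genes measured passed in either fit. The melanocyte list had a median of 0.09 without A and -0.08 with A. Mlana, a melanosome antigen, had 13.69 and 14.02 in F0 and 12.99, 13.96, 13.88 and 14.11 on F4 A to D (0.13 ± 0.67). Tyr, the tyrosinase gene, had 6.04 and 6.78 in F0, 7.03 to 7.44 on F4 B, C and D and 5.03 on A, where it was not detected (0.80 ± 0.61). Mc1r, the melanocortin receptor gene, had 8.37 and 8.32 in F0 and 7.95 to 8.05 on F4 B, C and D (-0.35 ± 0.52). Pax3, a regulator of the lineage, differed by 0.22 ± 0.23.

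Markers of other cell types gave the clearest change on leaving out A. The median difference of T cell markers was 1.17 with A and 0.21 without, of cytotoxic and NK cell markers 1.02 and 0.12, of macrophage and monocyte markers 0.72 and 0.09, and of skeletal muscle markers 0.37 and 0.03. No marker passed in either fit. Cd3d, of the T cell receptor complex, had 6.33 and 4.35 in F0, 6.66, 5.83 and 4.94 on F4 B, C and D and 10.37 on A. Cd8b1 showed the same order, with 7.44 and 4.39 in F0, 5.41 to 7.76 on F4 B, C and D and 11.43 on A. Lyz2, a lysozyme of macrophages and neutrophils, had 10.76 and 9.51 in F0 and 8.77 to 11.94 on F4 B, C and D, with 12.60 on A. Neutrophil markers kept a median of 0.31 without A. Among them S100a8 had 5.63 and 4.75 in F0 and 7.48, 6.11 and 6.17 on F4 B, C and D, with 9.76 on A (1.40 ± 0.47 without A). S100a9, its partner, had 4.64 and 4.41 against 4.75 to 5.60, and Il1b overlapped between the lines. Both S100 genes were at 10.55 or more on every microenvironment array, and the part of such cells in these values was not tested. The remaining marker lists had medians of 0.11 without A and 0.76 with A for pan-leukocyte genes (9 measured), 0.15 and 0.69 for endothelial genes (11), and 0.29 and 0.49 for fibroblast genes (10). The 4 erythroid genes measured gave -0.04 and 0.26, the 3 B cell genes -0.09 and 0.16, and the 1 keratinocyte gene 0.25 and 0.55. Several medians without A changed sign with the F0 array left out. Without tumor_F0 B2 and without tumor_F0 B3 they were 0.63 and -0.38 for T cells and 1.13 and -0.48 for macrophages. For pan-leukocyte genes they were 0.64 and -0.69, for endothelial genes 0.61 and -0.39, and for fibroblast genes 1.53 and -0.76. The neutrophil median kept its sign, at 0.43 and 0.12.

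Replicate A was also described on its own, without a test, by the 8 genes that most exceeded F4 B, C and D and the 8 that fell furthest below them. The first set held muscle and cytotoxic genes. Acta1, skeletal muscle actin, was at 10.77 on A and 4.46 to 5.39 on the other F4 arrays, and Myl1, a myosin light chain, at 10.28 against 4.41 to 5.40. Prf1, the perforin gene, was at 11.44 against 6.32 to 7.40, Nkg7, of cytotoxic granules, at 10.92 against 4.83 to 7.01, and Ctsw, a lymphocyte cathepsin, at 9.72 against 4.40 to 5.78. Ccdc144b, Erich5 and Rhbdl2 completed the set, at 11.48, 12.41 and 12.02. Acta1 and Myl1 on A exceeded the highest microenvironment array, at 9.10 and 9.36, whereas Prf1, Nkg7 and Ctsw lay within the microenvironment range. The second set held Slc45a2, a melanosome transporter, at 9.17 against 11.50 to 11.58, and Met, the hepatocyte growth factor receptor gene, at 5.09 against 8.19 to 8.42. Met stood at 5.80 and 6.73 in F0, so without A its difference was 2.01 ± 0.88 (adjusted p = 1.0) and with A 1.21 ± 1.07. The others were Bahcc1, Bmi1, Cav2, Gsdmc, Igsf11 and Zfp386, at 4.68 to 5.65 on A and within 6.95 to 8.26 on F4 B, C and D. All 8 genes of the second set were lower on A than on both F0 arrays.

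The difference between the lines was set against that in the microenvironment fraction of the same tumors. The test of this interaction called 0 genes in limma both with and without A, with 97 and 111 genes at an unadjusted p below 0.05. For Hs3st1 the microenvironment averaged 6.61 in F0 and 7.90 in F4, for Pgam2 5.05 and 7.15, for Lgi4 6.53 and 4.94 and for Slc2a3 9.43 and 9.81. Each of these stood in the same order as in tumor cells, and whether the negative fraction held tumor cells was not tested. Other genes stood in the opposite order there. Faah averaged 8.35 in F0 and 8.72 in F4, and Bdh1 6.99 and 6.61.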

How the data were processed

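RNA was measured in 12 samples on single-colour Illumina mouse bead arrays. Per the labels' protocols, 300 ng of total RNA per sample was amplified and biotinylated by Eberwine labelling, and per the submitters' processing notes GenomeStudio, whose version the sources used here do not state, was used. In the deposited table are, per the file headers, a linear intensity that was not normalized and a detection p-value for each of 25697 probes and 12 arrays. A second table deposited by the authors, of processed intensity values with unstated normalization, served only as an alternative.

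In R 4.3.3 with limma 3.58.1, neqc inferred the background from the detection p-values (normexp, offset 16) and quantile-normalized all 12 arrays on the log2 scale, which forces one distribution on both fractions. Kept were 11224 probes detected (p below 0.01) on 2 or more arrays, and the brightest probe stood for a gene (7894 genes). A gene detected in only one group could thus enter the test through the group where it was high. In the platform annotation 12096 of the 25697 probes carried 1 gene symbol, 0 carried several, and 13601 are unnamed here; 12090 symbols were brought up to date with RefSeq (GRCm38.p6), matching on Entrez identifiers. Group means were fitted to all 12 arrays, or to 11 without tumor_F4 A, with empirical Bayes moderation (residual degrees of freedom 8 and 7, prior 3.27 and 3.22) and Benjamini-Hochberg adjustment over all genes at 0.05. Leaving out A kept the normalized values and the genes tested. Every adjusted p and SE in the text is from limma. "At least" marks a gene that no array of the dimmer group detected: its level there was taken, array by array, as the larger of its own signal and the lowest signal of a detected probe.

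Named were genes past the threshold in either fit, the 12 largest differences each way, up to 4 members with the smallest unadjusted p of each of 30 lists, a fixed set, and 16 genes that describe replicate A. Clone-named genes were skipped among the largest differences. The fixed set included Pgam2 and Adh7 from recalled published work on this line, and Fbp1, Pdcd1, Flt3, Ptprc and Jak1, which had no kept probe. The members, the lists and the naming rule were chosen with earlier results of these data known, so no list is independent evidence. Steps were tested on simulated data. No F0 tumor replicate (B2, B3) carries the same label as an F4 one (A to D); the pool of mice shared by both fractions entered as a random block (replicate block) in an alternative, with a consensus correlation of 0.198 with A and 0.270 without. Other alternatives changed the normalization, background, filter, probe rule, prior, weights and arrays.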

Additional observations from a re-analysis of the deposited data

Results flagged for a closer look

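Among the 6 tumor arrays, groups of 4 arrays or more were examined for a single array far from the rest of its group, which here meant the 4 F4 arrays. Of 113 named genes 27 had such an array, and of 29 lists 1 did. Chance gives about 5% of groups such an array, but 16 of the genes were named because A lay far from the other F4 arrays, and 10 of the 27 are among these. The other 17 were found among 97 genes, many of which were also chosen by values of these arrays, so neither count can be set against that share. In 27 of these cases the array was F4 A. It stood below the other F4 arrays for D630003M21Rik (4.33), Fkbp11 (7.07), Rps6kl1 (5.56), Igsf5 (4.80), Abcc2 (4.72), Pfkp (9.75), Tyr (5.03), Mc1r (6.84), Bahcc1 (5.65), Bmi1 (5.44), Cav2 (4.68), Gsdmc (4.75), Igsf11 (5.29), Met (5.09), Slc45a2 (9.17) and Zfp386 (5.08). It stood above them for Rhox5 (7.23), Upp1 (10.12), Efcab6 (4.98), Chn2 (5.49), Ctla4 (7.09), Ccnd1 (11.57), Adcy6 (5.82), Mylpf (8.48), Acta1 (10.77), Myl1 (10.28) and the mean of the skeletal muscle markers (7.50). In the remaining case F4 B was low for Uqcrc1 (10.66). No difference between the fractions in the effect of the line passed the test.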

How the results depend on the processing

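Counts of higher and lower genes, 1 and 6 with replicate A and 2 and 3 without it, moved with most choices, and the cause was not tested. With A they were 1 and 0 with the tumor arrays alone in the fit, 0 and 0 with these normalized and fitted alone, 11 and 2 with median scaling, 0 and 2 without background correction, 51 and 49 with array quality weights, 2 and 13 with a trended robust prior, 1 and 7 without a filter, 2 and 8 with a filter on detection in the tumor groups, 1 and 6 with each probe on its own, 0 and 5 in the authors' processed table, and 0 and 3 with an offset of 50. Without A, in the same order, they were 15 and 14, 17 and 13, 15 and 3, 0 and 2, 52 and 50, 8 and 14, 2 and 5, 3 and 5, 1 and 3, 1 and 6, and 1 and 3. With the replicate block they were 1 and 5 with A and 1 and 3 without it, where Zp3 was lost (adjusted p = 0.0525). Leaving out one array gave 0 to 2 higher and 0 to 8 lower with A, and 0 to 5 higher and 1 to 7 lower without A. For the tumor arrays alone without A (15 and 14), settings added after seeing the data gave 17 and 13 when normalized alone, 16 and 12 with median scaling, 0 and 1 in the authors' table, and 0 to 32 higher and 1 to 20 lower over omissions. Over 5305 recomputed differences of 113 named genes, 156 passed that had not and 105 no longer passed. A sign changed in 78, in all but 1 of which the difference lay within 1 SE of 0 in one of the fits. The exception was Egr1 without A, at -0.62 without tumor_F0 B3 and 2.86 without tumor_F0 B2. Weak signal limits the genes not detected in one line. Without A, their differences shrank without background correction: Rhox5 to -3.83, Fbp2 to -0.80 and Zp3 to 0.54. Genes detected on all tumor arrays also had smaller differences under some settings, such as 2.17 for Hs3st1 and -1.03 for Faah without A. Whether weak signal accounts for the shrinkage was not tested.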
